A study of Homo sapiens with 6 samples.

Results

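Small nucleolar RNA (snoRNA) host genes of the long non-coding class were followed in HCT116 cells after siRNA against LINC01534. The group held 10 genes, given by symbol: GAS5, SNHG1, SNHG5, SNHG6, SNHG8, SNHG12, SNHG15, SNHG16, ZFAS1 and EPB41L4A-AS1. All 10 were found among the 26255 gene symbols of the expression tables. HCT116 is an established human colorectal carcinoma cell line, and LINC01534 is a long intergenic non-coding RNA that the study silenced to examine its role in colorectal cancer cells. RNA was sequenced from 6 libraries in 3 groups of 2, namely the parent HCT116 cells, and cells given either of the LINC01534 siRNAs siLINC01534-1 and siLINC01534-2. The labels do not describe the parent cells as transfected with a control siRNA, so the effects of transfection and of LINC01534 loss cannot be told apart here.

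A snoRNA host gene carries snoRNAs in its introns. The snoRNA is released after splicing and guides chemical modification of ribosomal and other RNAs, box C/D snoRNAs (SNORD genes) for methylation and box H/ACA snoRNAs (SNORA genes) for pseudouridylation. The spliced exons of these hosts encode no long protein, and many host transcripts are engaged by ribosomes and removed by nonsense-mediated decay, the pathway that degrades RNAs with an early stop codon. Many of them also start with a 5′ terminal oligopyrimidine tract (5′TOP), a C followed by a run of C and T bases that is best known from ribosomal protein mRNAs.

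The first 20 bases of an annotated transcript start are shown for 9 of the hosts, because this start is what many of them share with ribosomal protein genes. The commonest start with a tract of this kind is shown where at least 2 transcripts share one, and otherwise the commonest start. They are written 5′ to 3′ on the transcribed strand, and capitals mark the unbroken run of C and T from the first base.
GAS5: CTTTTCgaggtaggagtcga
SNHG16: CTTTTCgaggtcggccgcgt
SNHG5: CTTTTacgtcggccttcgcg
ZFAS1: CTTTCgcgtctgcggtgccc
SNHG8: CTTTCacattcgggaagcgt
SNHG12: CCTTTCTCCCCgccgcattc
EPB41L4A-AS1: CCTTTCTTCCTTTTggtgcg
SNHG1: CTCatttttctactgctcgt
SNHG15: ggcgcagcgcgcggcgtcag

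These windows lie on GRCh37, the build of the files (hg19), at chr1:173837108-173837127 for GAS5, chr17:74553851-74553870 for SNHG16, chr6:86388432-86388451 for SNHG5, chr20:47895179-47895198 for ZFAS1, chr4:119199913-119199932 for SNHG8, chr1:28908366-28908385 for SNHG12, chr5:111496561-111496580 for EPB41L4A-AS1, chr11:62623338-62623357 for SNHG1 and chr7:45026248-45026267 for SNHG15. SNHG8, SNHG16, ZFAS1 and EPB41L4A-AS1 are on the plus strand and the other members, SNHG6 included, on the minus strand. All 10 members are annotated as lncRNA genes in GENCODE, and each window begins the first exon of the annotated transcripts that start there. The shown start is the commonest of its gene, or shares that place, except for SNHG5 and SNHG16. SNHG5 has 3 transcripts at the shown start and 61 at another that opens with no C or T, and SNHG16 has 3 and 5.

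A start with a C and at least 4 further C or T bases was found in at least 1 annotated transcript of 9 of the 10 members. SNHG15, whose shown start opens with a G, had none among its 14 transcripts, and SNHG1 had 1 among 80. GAS5 had the most such transcripts, 50 of 91. Of the 357 transcripts of the members, 23.5% began this way. This compares with 2.59% of all 254413 annotated transcripts and 25.5% of the 777 transcripts of ribosomal protein genes. The pooled share of the members leans on GAS5. By gene it ran from 0% in SNHG15, 1.25% in SNHG1 and 3.37% in SNHG5 to 54.9% in GAS5 and 62.5% in SNHG6. Among the 6042 tested genes with 8 or more annotated transcripts, the fewest of any member, 27.9% had at least 1 such start. That share is not matched for transcript number, since GAS5 has 91, SNHG5 89 and SNHG1 80. These are annotated starts, and the sequencing did not map the starts used in these cells.

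Levels were given as FPKM, fragments per kilobase of transcript scaled to the mapped reads of the library, which is a level per length and can be set side by side between genes. Single reads recovered from low genes put the depth at 8680000 to 10400000 reads per library, and 16513 to 16903 genes were above 0. LINC01534 was near the detection limit in every library. Its FPKM was 0.285 and 0.571 in parent, 0 and 0.283 in siLINC01534-1, and 0.660 and 0.551 in siLINC01534-2. These values correspond to 1 and 2 reads in parent, 0 and 1 in siLINC01534-1 and 2 and 2 in siLINC01534-2, so the libraries cannot show whether either siRNA lowered its target. By qRT-PCR in HCT116 cells, the paper reports that both siRNAs lowered LINC01534 relative to a negative control siRNA. Directions below refer to libraries by their labels. The epithelial markers EPCAM (199 to 204 FPKM), KRT8, KRT18, KRT19 and CDH1 were present, whereas VIL1, CDH17 and CEACAM5 were under 0.5 FPKM in every library. Of the leukocyte, fibroblast and endothelial markers, CD3E and DCN were at 0 and PTPRC, PECAM1 and VWF at most at 0.0797 FPKM in all libraries. Only 3 of these 10 markers reached a mean FPKM of 1, and CD68 and COL1A1 were called higher for the mean of the siRNAs. Taken singly, CD68 passed with siLINC01534-2 only and COL1A1 with siLINC01534-1 only. The summed FPKM of the 10 markers was 7.17 to 7.89 in parent, 10.7 to 10.8 in siLINC01534-1 and 11.1 to 12.4 in siLINC01534-2, and the part of this in the results was not tested. In bulk RNA, fewer cells of a type and less RNA per cell cannot be told apart.

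The host lncRNAs were abundant in parent cells. SNHG6 and SNHG8 were highest, with means of 309.9 ± 14.2 and 302.3 ± 0.663 FPKM (SD, n = 2), and their libraries overlapped. GAS5, ZFAS1 and SNHG1 followed at 252, 246 and 237 FPKM without separating from one another. SNHG16, SNHG5 and SNHG12 came next with overlapping levels, at 94.5, 92.2 and 89.7 FPKM. SNHG15 (55.0 FPKM) and EPB41L4A-AS1 (17.6 FPKM) stood apart below them. By mean level, SNHG6 ranked 284 and EPB41L4A-AS1 4750 among 12203 genes whose FPKM averaged 1 or more over the libraries.

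The order changed in the siRNA groups. GAS5 became the highest member with siLINC01534-1 and ZFAS1 with siLINC01534-2, and in neither siRNA group did neighbouring members overlap. The summed FPKM of the 10 members was 1675 and 1718 in parent, 2444 and 2370 in siLINC01534-1, and 2575 and 2587 in siLINC01534-2.

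**Figure D1:**
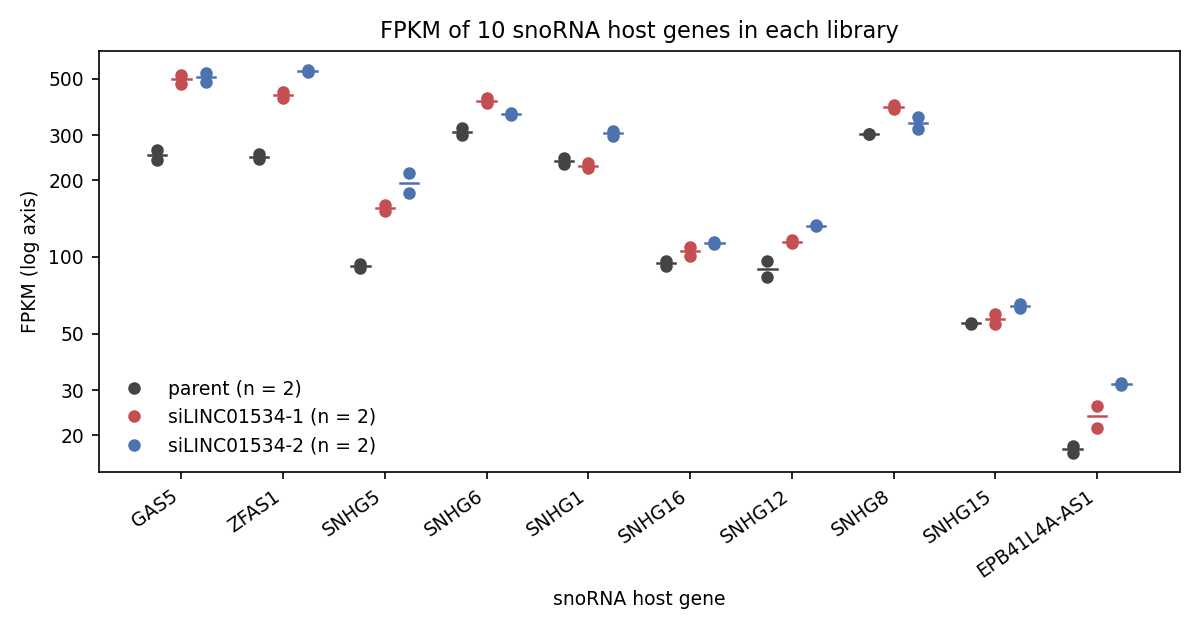
FPKM of the 10 host lncRNAs (log axis) in each library, with 1 point per library and a short line at the group mean (n = 2 per group). GAS5, ZFAS1 and SNHG5 show the widest gap between the parent points and both siRNA groups, whereas the SNHG1 points of siLINC01534-1 lie within or below the parent range.

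To ask whether each siRNA changed the host lncRNAs, log2(FPKM + 1) of the 12203 genes was fitted with limma, and a gene was called when its Benjamini-Hochberg adjusted p was under 0.05 over all of these genes. Both siRNA comparisons share the parent libraries. With siLINC01534-1, 7 of the 10 members rose, none fell, and SNHG1, SNHG15 and SNHG16 did not pass. The background was large, since 21.8% of all genes tested rose, 24.5% fell and 46.3% were called in either direction. With siLINC01534-2, 9 members rose, none fell and SNHG8 did not pass, beside 11.1% of genes tested that rose, 11.8% that fell and 22.8% called in either direction. When the siRNA effects were averaged, 9 members rose, none fell and SNHG15 did not pass, beside 17.1% of all genes tested higher, 20.1% lower and 37.2% in either direction. With the 4 siRNA libraries taken as 1 group, 3 members passed (GAS5, SNHG5 and ZFAS1), and with any 1 library left out 6 to 8 passed. The median log2 fold change of the members was 0.38, 0.46 and 0.39 in the 3 comparisons, and that of all genes tested was 0.00031, 0.0018 and -0.0068. The siLINC01534-1 libraries lay above both parent libraries in 8 members (37.5% of genes tested), the siLINC01534-2 libraries in all 10 (32.1%), and all 4 siRNA libraries together in 8 (19%). Without siLINC01534-2 replicate 2, 5 members passed in the siLINC01534-2 comparison.

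**Figure D2:**
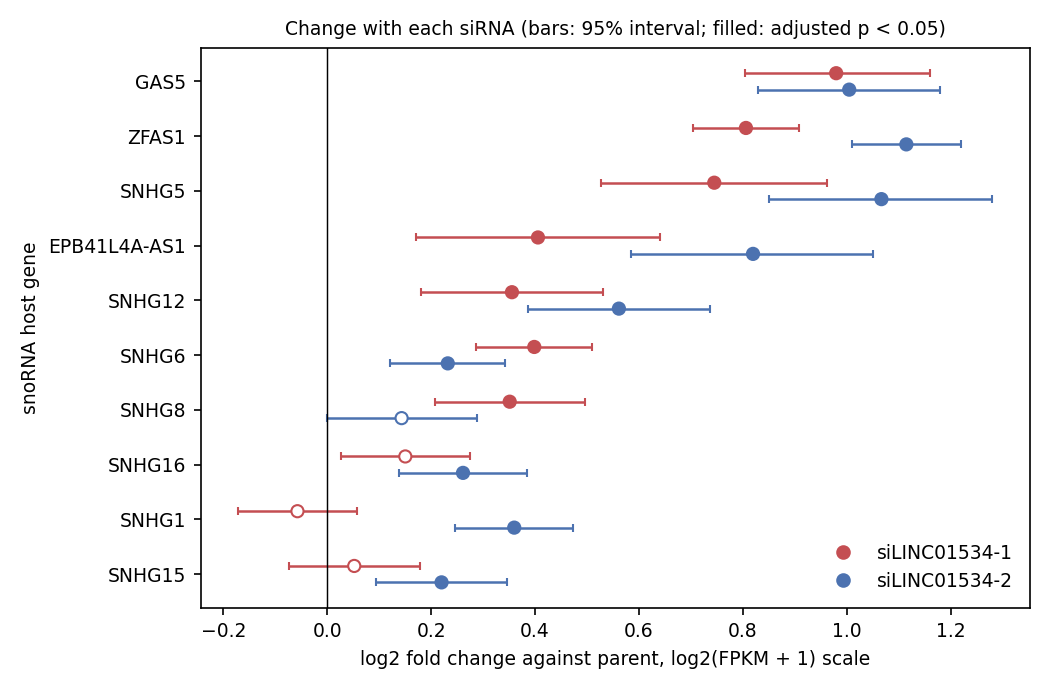
Log2 fold change of each host lncRNA against parent on the log2(FPKM + 1) scale, with 95% intervals from the limma fit. Filled points passed the adjusted p threshold, with 7 of 10 filled for siLINC01534-1 and 9 of 10 for siLINC01534-2.

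The box C/D hosts included the members with the widest change. They hold SNORD genes, and the span of GAS5 also holds SNORA103, a box H/ACA gene by name. GAS5, the growth arrest-specific transcript that hosts the most snoRNAs of the group, was at 240.0 and 263 FPKM in parent, 518 and 476 in siLINC01534-1, and 485 and 526 in siLINC01534-2. All 4 siRNA libraries were above both parent libraries, and the siRNA groups overlapped. The log2 fold change was 0.98 (SE 0.0702, limma adjusted p = 0.00035) with siLINC01534-1 and 1.00 (SE 0.0702, limma adjusted p = 0.0015) with siLINC01534-2. These correspond to 1.98-fold and 2.01-fold the parent mean. The siRNAs differed by -0.03 on the log2 scale (siLINC01534-1 minus siLINC01534-2, 95% interval -0.20 to 0.15, limma adjusted p = 0.80).

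The outermost annotated span of ZFAS1 overlaps the start of ZNFX1 on the opposite strand, and ZFAS1 hosts the SNORD12 family. It was at 241 and 252 FPKM in parent. It reached 442 and 421 FPKM in siLINC01534-1 and 541 and 529 in siLINC01534-2. The 3 groups did not overlap, and siLINC01534-2 was highest. ZFAS1 rose by 0.81 on the log2 scale with siLINC01534-1 (SE 0.0409, limma adjusted p = 0.00014) and by 1.11 with siLINC01534-2 (SE 0.0409, limma adjusted p = 0.00024).

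SNHG5, the host of SNORD50A and SNORD50B, was at 90.9 and 93.4 FPKM in parent, 151 and 159 in siLINC01534-1, and 177 and 213 in siLINC01534-2. The groups again did not overlap, although the SD within siLINC01534-2 was 24.9 FPKM, against 1.83 in parent. Its log2 fold changes were 0.75 (SE 0.0871, limma adjusted p = 0.0017) and 1.07 (SE 0.0871, limma adjusted p = 0.002). GAS5, ZFAS1 and SNHG5 were the 3 members whose mean was at least 1.5-fold the parent mean with each siRNA, as it was for 2.8% of genes tested.

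SNHG6, on chromosome 8, hosts SNORD87. Its FPKM was 319.97 and 299.9 in parent, 418 and 399 in siLINC01534-1, and 367 and 361 in siLINC01534-2. Here siLINC01534-1 was the higher siRNA group and no groups overlapped. SNHG6 rose by 0.40 (SE 0.0445, limma adjusted p = 0.0015) and 0.23 (SE 0.0445, limma adjusted p = 0.02) on the log2 scale. The second call was lost without parent replicate 2 (adjusted p = 0.0846, limma) or without either siLINC01534-2 library (0.093 and 0.0852).

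SNHG16 spans SNORD1A, SNORD1B and SNORD1C. It was at 96.6 and 92.4 FPKM in parent, 101 and 109 in siLINC01534-1, and 112 and 115 in siLINC01534-2. Every siRNA library lay above the parent libraries, but the steps were small. The log2 fold change of 0.15 with siLINC01534-1 did not pass (SE 0.0493, limma adjusted p = 0.053), and that of 0.26 with siLINC01534-2 did (SE 0.0493, limma adjusted p = 0.019). The latter call was lost when any of the parent or siLINC01534-2 libraries was left out, with limma adjusted p between 0.0674 and 0.0995.

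SNHG1, which has named box C/D snoRNAs in its introns, was at 230.2 and 244 FPKM in parent and at 233 and 223 in siLINC01534-1, so these groups overlapped. In siLINC01534-2 it was at 311 and 299 FPKM, above all other libraries. Its log2 fold change was -0.06 with siLINC01534-1 (SE 0.0457, limma adjusted p = 0.35, 95% interval -0.17 to 0.06; 0.03 after quantile normalization) and 0.36 with siLINC01534-2 (SE 0.0457, limma adjusted p = 0.0066). The difference between the siRNAs was itself past the threshold (-0.42, SE 0.0457, limma adjusted p = 0.0017). For the mean of both siRNAs the change of 0.15 passed (limma adjusted p = 0.032). This call was lost when any 1 of the 6 libraries was left out, and it held under only 6 of 16 alternatives.

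SNHG12 hosts snoRNAs of both classes, SNORA16A, SNORA44, SNORA61 and SNORD99. It was at 83.1 and 96.3 FPKM in parent, 116 and 113 in siLINC01534-1, and 132 and 133 in siLINC01534-2, with no overlap between groups. It rose by 0.36 (SE 0.0704, limma adjusted p = 0.01) and 0.56 (SE 0.0704, limma adjusted p = 0.0064). The first call was lost without siLINC01534-1 replicate 1 or 2 (limma adjusted p = 0.0668 and 0.0518) and the second without siLINC01534-2 replicate 2 (0.0522).

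The box H/ACA hosts were SNHG8, SNHG15 and EPB41L4A-AS1, each with 1 snoRNA gene in its span. EPB41L4A-AS1, the host of SNORA13, was the least abundant member and had the widest change of these, at 17.0 and 18.2 FPKM in parent, 26.1 and 21.4 in siLINC01534-1, and 31.5 and 32.2 in siLINC01534-2. The groups did not overlap. The log2 fold change was 0.41 (SE 0.0939, limma adjusted p = 0.018) with siLINC01534-1 and 0.82 (SE 0.0939, limma adjusted p = 0.005) with siLINC01534-2. Without parent replicate 1 or 2 the former did not pass (limma adjusted p = 0.0977 and 0.0619).

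SNHG8, the host of SNORA24, was at 302 and 303 FPKM in parent, 378 and 394 in siLINC01534-1, and 353 and 316 in siLINC01534-2. All siRNA libraries were above parent, with siLINC01534-1 the higher. SNHG8 rose by 0.35 with siLINC01534-1 (SE 0.0579, limma adjusted p = 0.0055), and its change of 0.14 with siLINC01534-2 did not pass (SE 0.0579, limma adjusted p = 0.13, 95% interval -0.0012 to 0.29). The rise of 0.25 for the mean of both siRNAs (limma adjusted p = 0.015) was lost without either parent library (0.0865 and 0.0874) or without siLINC01534-1 replicate 2 (0.0545).

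SNHG15, which spans SNORA9, was at 54.8 and 55.3 FPKM in parent, 59.6 and 54.7 in siLINC01534-1, and 65.3 and 63.3 in siLINC01534-2. The siLINC01534-1 libraries overlapped parent, and the siLINC01534-2 libraries lay above both. It differed from parent by 0.05 with siLINC01534-1 (SE 0.0503, limma adjusted p = 0.43, 95% interval -0.07 to 0.18), or by -0.0095 without siLINC01534-1 replicate 1, and rose by 0.22 with siLINC01534-2 (SE 0.0503, limma adjusted p = 0.032). The latter call was lost without any 1 of the parent or siLINC01534-2 libraries, and with no filter on low values (limma adjusted p = 0.052). It held under 9 of 15 alternatives.

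The siRNAs were then compared with each other. In 7 members the siLINC01534-2 libraries lay above both siLINC01534-1 libraries, as for 36.9% of genes tested, and in 2 members, SNHG6 and SNHG8, the reverse held, as for 36.5%. By limma, SNHG1, SNHG5, SNHG15, ZFAS1 and EPB41L4A-AS1 were lower with siLINC01534-1 than with siLINC01534-2, and SNHG6 and SNHG8 were higher. Of all genes tested, 22.3% were lower and 19.5% higher in this comparison, and 41.8% were called in either direction. ZFAS1 differed by -0.31 (SE 0.0409, limma adjusted p = 0.0032) and EPB41L4A-AS1 by -0.41 (SE 0.0939, limma adjusted p = 0.019). With no filter on low values, or with no trend in the limma fit, 3 members passed, and with any 1 library left out 2 to 5 did (2 without siLINC01534-2 replicate 2). The calls of SNHG1 and ZFAS1 held under all 15 alternatives, whereas SNHG15 passed under 5, SNHG5 and SNHG8 under 7 and SNHG6 under 9. GAS5, SNHG12 and SNHG16 did not pass, with 95% intervals of -0.20 to 0.15, -0.38 to -0.03 and -0.23 to 0.01.

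Other snoRNA host lncRNAs were set beside the members, with no test of the difference between the lists. Of 18 further symbols of snoRNA host lncRNAs, in which C6orf48 and SNHG32 name 1 gene, 16 were in the tables and 13 reached a mean FPKM of 1. For the mean of both siRNAs, 2 of the 13 rose and 1 fell, where 17.1% of all genes tested rose and 20.1% fell. Their median log2 fold change was 0.07, beside 0.39 for the 10 members. C6orf48, which hosts SNORD48 and SNORD52, was at 141 and 152 FPKM in parent and at 233 to 260 in the 4 siRNA libraries, and it rose by 0.74 (SE 0.0478, limma adjusted p = 0.00049). SNHG19 rose by 0.38 (SE 0.0669, limma adjusted p = 0.0094). It passed with siLINC01534-1 (0.57, limma adjusted p = 0.0028) but not with siLINC01534-2 (0.19, limma adjusted p = 0.14). DANCR, also known as SNHG13, fell by 0.13 (SE 0.0298, limma adjusted p = 0.02). Its change passed with siLINC01534-2 (-0.16, limma adjusted p = 0.026) but not with siLINC01534-1 (-0.10, limma adjusted p = 0.054).

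Coding genes that carry snoRNAs were split by the kind of protein. For the mean of both siRNAs, 17.1% of all genes tested rose and 20.1% fell. Of 21 ribosomal protein hosts, 9 rose and none fell in this comparison, with a median of 0.10. RPL13A rose by 0.32 (SE 0.0285, limma adjusted p = 0.0011) and RPL10 by 0.28 (SE 0.0322, limma adjusted p = 0.0026). Of 23 other coding hosts, 6 rose and 10 fell, with a median of -0.08. TAF1D, a subunit of an RNA polymerase I initiation factor, rose by 0.34 (SE 0.0501, limma adjusted p = 0.0055), and TPT1, a 5′TOP mRNA for a translationally controlled protein, by 0.29 (SE 0.0366, limma adjusted p = 0.0031). EIF4A1, the RNA helicase of cap-dependent translation, fell by 0.61 (SE 0.0335, limma adjusted p = 0.00033).

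The proteins that assemble snoRNAs into particles went lower more often than higher. Of 16 snoRNP proteins and assembly factors tested, 10 fell and 1 rose for the mean of both siRNAs, with a median of -0.15. NOP56, NOP58 and DKC1 all fell and also count among the other coding hosts above, so the lists are not independent. Among all genes tested, 20.1% fell and 17.1% rose. DKC1, the pseudouridine synthase of box H/ACA particles and itself a snoRNA host, was at 116 and 112 FPKM in parent, 104 and 105 in siLINC01534-1, and 69.4 and 70.0 in siLINC01534-2. Its groups did not overlap, and it fell by 0.41 for the mean of both siRNAs (SE 0.0283, limma adjusted p = 0.00057). RUVBL2, an ATPase of the assembly complex, fell by 0.29 (SE 0.0362, limma adjusted p = 0.0031), and ZNHIT6, an assembly factor of box C/D particles, rose by 0.25 (SE 0.0407, limma adjusted p = 0.0077).

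Genes of nonsense-mediated decay were listed because the host transcripts are substrates of this pathway. Of 15 decay factors, 3 fell and 1 rose for the mean of both siRNAs, with a median of -0.10. Among all genes tested, 20.1% fell and 17.1% rose. With siLINC01534-1, 6 factors fell and 2 rose, beside 24.5% and 21.8% of all genes tested. With siLINC01534-2 none fell and 2 rose, beside 11.8% and 11.1%. UPF1, the central helicase of the pathway, was at 48.2 and 48.3 FPKM in parent, 36.9 and 34.5 in siLINC01534-1, and 43.9 and 44.6 in siLINC01534-2. All siRNA libraries were below parent, and UPF1 changed by -0.42 with siLINC01534-1 (SE 0.0441, limma adjusted p = 0.0011) and by -0.12 with siLINC01534-2, which did not pass (SE 0.0441, limma adjusted p = 0.11). ETF1, a translation termination factor, fell by 0.13 for the mean of both siRNAs (SE 0.0268, limma adjusted p = 0.016). It changed by -0.26 with siLINC01534-1 (limma adjusted p = 0.0019) and by 0.0014 with siLINC01534-2, which did not pass (limma adjusted p = 0.98). PNRC2, an adaptor to decapping, rose by 0.37 (SE 0.0305, limma adjusted p = 0.00089).

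The exon junction complex marks spliced RNAs for this pathway. Of its 7 tested genes, 5 were lower with siLINC01534-1, and 1 was lower and 1 higher with siLINC01534-2. Among all genes tested, 24.5% were lower with siLINC01534-1, and 11.8% were lower and 11.1% higher with siLINC01534-2. RBM8A was at 37.04 and 37.6 FPKM in parent, 21.1 and 22.4 in siLINC01534-1, and 39.2 and 39.7 in siLINC01534-2. It was low only in the siLINC01534-1 libraries, with log2 changes of -0.75 (SE 0.0433, limma adjusted p = 0.00019) and 0.08 (SE 0.0433, limma adjusted p = 0.25). EIF4A3 fell with both, by 0.48 (SE 0.0366, limma adjusted p = 0.00042) and 0.21 (SE 0.0366, limma adjusted p = 0.016).

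Of 17 RNA decay enzymes, 2 rose and 3 fell for the mean of both siRNAs, with a median of -0.04. Among all genes tested, 17.1% rose and 20.1% fell. XRN1, the cytoplasmic 5′ exonuclease, rose by 0.35 (SE 0.0793, limma adjusted p = 0.022) and CNOT8, a deadenylase, by 0.23 (SE 0.0436, limma adjusted p = 0.013). CNOT8 passed with each siRNA. XRN1 passed with siLINC01534-1 (0.41, limma adjusted p = 0.015) but not with siLINC01534-2 (0.28, limma adjusted p = 0.082). CNOT6, another deadenylase, fell by 0.32 (SE 0.0774, limma adjusted p = 0.026) and EDC4, a decapping cofactor, by 0.22 (SE 0.0324, limma adjusted p = 0.0057). Both passed with siLINC01534-1 only. With siLINC01534-1, CNOT6 changed by -0.65 (limma adjusted p = 0.0029) and EDC4 by -0.38 (limma adjusted p = 0.00098). With siLINC01534-2 they changed by 0.01 (limma adjusted p = 0.92) and -0.05 (limma adjusted p = 0.35).

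Coding genes with transcripts known as targets of nonsense-mediated decay moved in both directions. FPKM was given per gene, so transcripts removed by this pathway were not told apart from other transcripts of the same gene. Of 14 tested, 5 rose and 7 fell for the mean of both siRNAs, with a median of -0.04. Among all genes tested, 17.1% rose and 20.1% fell. UPP1, a uridine phosphorylase, rose by 2.24 (SE 0.0613, limma adjusted p = 5.3e-05) and DDIT3, a transcription factor of the stress response, by 2.05 (SE 0.0715, limma adjusted p = 0.00011). The other risers, named after their values were seen, were the stress-response genes ATF3 (2.04), GADD45A (1.198) and ATF4 (0.42). The genes that fell were splicing factors and an hnRNP. SRSF7 was lowest with a fall of 0.34 (SE 0.029, limma adjusted p = 0.00099), and SRSF3 fell by 0.30 (SE 0.0277, limma adjusted p = 0.0012).

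Regulators of 5′TOP mRNA translation were taken as a last list. None of 11 rose and 7 fell with siLINC01534-1, beside 21.8% and 24.5% of all genes tested. With siLINC01534-2 none rose and 2 fell, beside 11.1% and 11.8%. EIF4E, the cap-binding protein, was at 56.1 and 53.7 FPKM in parent, 22.3 and 22.9 in siLINC01534-1, and 53.0 and 49.4 in siLINC01534-2. It was low in the siLINC01534-1 libraries, with a log2 change of -1.24 (SE 0.0497, limma adjusted p = 7.8e-05), against -0.10 in siLINC01534-2 (SE 0.0497, limma adjusted p = 0.21). RPS6KB1, a kinase downstream of MTOR, fell by 0.89 with siLINC01534-1 (SE 0.0539, limma adjusted p = 0.00021) and differed by 0.17 with siLINC01534-2 (SE 0.0539, limma adjusted p = 0.078).

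**Figure D3:**
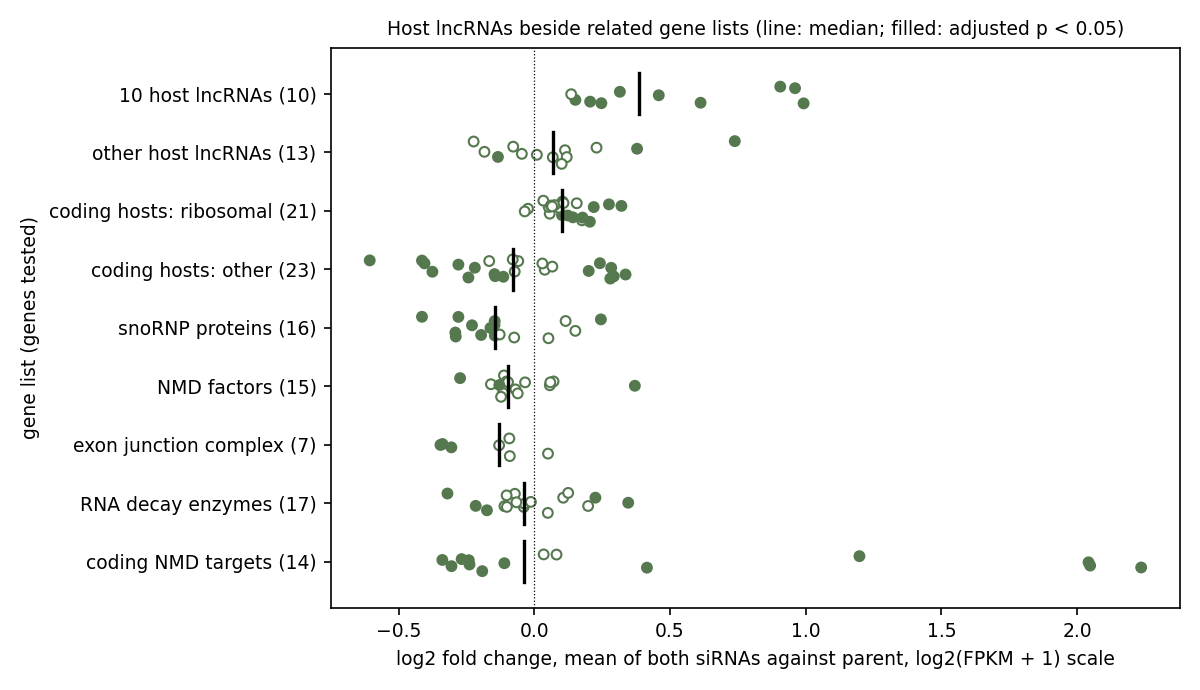
Log2 fold change of each tested gene (points), averaged over both siRNAs and relative to parent, by gene list, on the log2(FPKM + 1) scale. The 10 host lncRNAs all lie to the right of 0 with a median of 0.39, the other host lncRNAs have a median of 0.07, and filled points passed the limma threshold.

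The genome places 3 members next to the start of a coding gene on the opposite strand. Distances and overlaps below were taken between the outermost annotated ends of each gene. For GAS5, SNHG1 and ZFAS1 these ends are not the transcript starts shown above, and distances from the shown starts were not measured. SNHG1 and SLC3A2, an amino acid transporter subunit, start 51 bases apart and run in opposite directions without overlap. SLC3A2 was at 194 and 205 FPKM in parent, 417 and 400.3 in siLINC01534-1, and 407 and 439 in siLINC01534-2. Unlike SNHG1, SLC3A2 was above parent in both siRNA groups, which overlapped each other. It rose by 1.03 (SE 0.0514, limma adjusted p = 0.00013) and 1.08 (SE 0.0514, limma adjusted p = 0.00045), beside -0.06 and 0.36 for SNHG1.

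ZFAS1 and ZNFX1 start 248 bases apart and overlap by 249 bases. ZNFX1 was at 17.7 and 18.6 FPKM in parent, 24.7 and 25.9 in siLINC01534-1, and 20.2 and 20.7 in siLINC01534-2. Its groups did not overlap and siLINC01534-1 was highest, whereas ZFAS1 was highest with siLINC01534-2. ZNFX1 rose by 0.46 with siLINC01534-1 (SE 0.0482, limma adjusted p = 0.0012), and its change of 0.16 with siLINC01534-2 did not pass (SE 0.0482, limma adjusted p = 0.063). GAS5 and ZBTB37 start 800 bases apart and overlap by 801 bases. ZBTB37 reached at most 3.57 FPKM in any library and changed by -0.26 for the mean of both siRNAs, which did not pass (SE 0.149, limma adjusted p = 0.22).

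**Figure D4:**
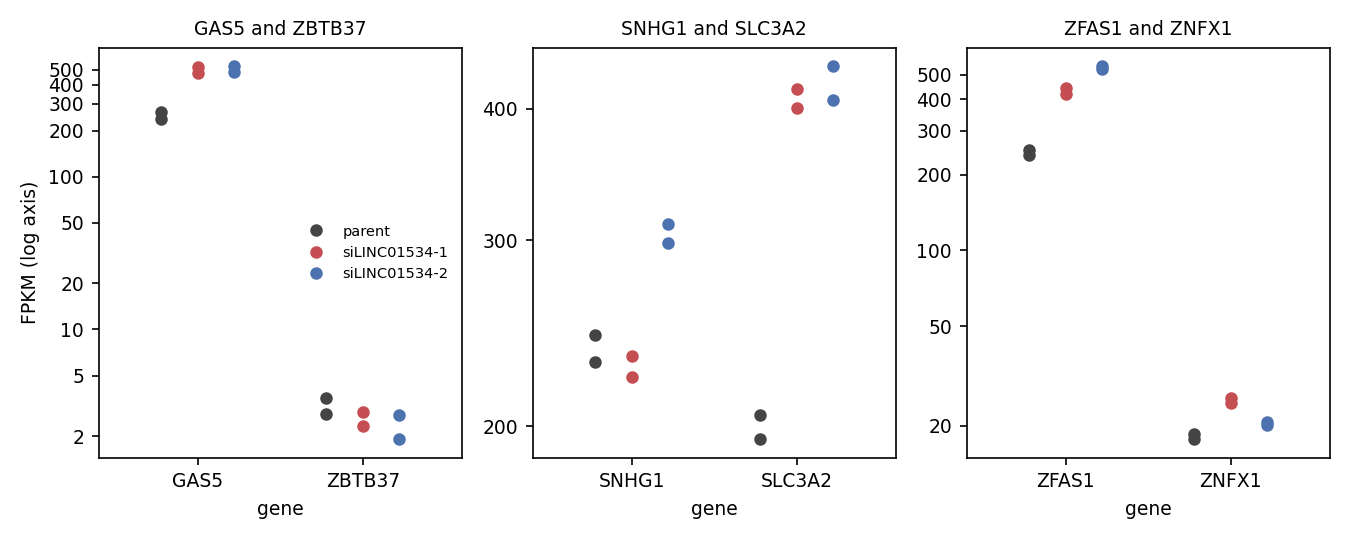
FPKM (log axes, scaled separately) of GAS5, SNHG1 and ZFAS1 beside the coding gene that starts nearby on the opposite strand, with 1 point per library. SLC3A2 is near 200 FPKM in parent and above 400 in the siRNA libraries, while SNHG1 is above parent in siLINC01534-2.

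Whether reads were assigned by strand is not stated in the sources used here, so the overlap of members with genes on the other strand bears on their values. The overlapping partner with the highest level relative to its member was EPB41L4A, at most 4.99 FPKM, and the lowest EPB41L4A-AS1 library was 3.41 times that. For SNHG12 and its overlapping partner TRNAU1AP, the lowest member library was 7.23 times the highest partner library.

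The snoRNAs themselves were almost not measured. RefSeq places 36 snoRNA genes within the spans of the 10 members, of which GAS5 has 11, SNHG1 9, SNHG12 4, and SNHG16 and ZFAS1 3 each. Of the 34 listed in the tables, 17 were at 0 in all 6 libraries. Of the other 17, 3 were above 0 in 1 library only, namely SNORD28, SNORD50A and SNORD12C. For 12 of the 14 seen in more libraries, FPKM fell on whole multiples of a common step, within 0.04 reads up to 4 reads and 1% above that, and taking the fewest reads that allowed this none exceeded 14 reads in any library. SNORD76 of GAS5 had 6 and 10 reads in parent, 7 and 14 in siLINC01534-1, and 8 and 5 in siLINC01534-2, and these groups overlapped. SNORD12B of ZFAS1 had 2 and 8, 6 and 5, and 5 and 3 reads. SNORA24 of SNHG8 had 7 and 4, 4 and 5, and 5 and 2 reads. The other 2, SNORD22 and SNORA61, had no clear step. SNORD22 of SNHG1 was at 665 and 635 FPKM in parent, 324 and 504 in siLINC01534-1, and 478 and 766 in siLINC01534-2. Its siLINC01534-1 libraries lay below parent, with a log2 change of -0.68 that did not pass (SE 0.282, limma adjusted p = 0.099). SNORA61 of SNHG12 was at 752 and 969.6 FPKM in parent and between 716 and 1013 in the siRNA libraries, so its groups overlapped. Of the 17 snoRNAs above 0, 3 had both siLINC01534-1 libraries below parent by FPKM (SNORD22, SNORA44 and SNORD99) and none above. With siLINC01534-2, SNORD99 lay below and SNORD12 above. Of all genes tested, 37.5% lay above both parent libraries with siLINC01534-1 and 32.1% with siLINC01534-2. The share of all genes below both parent libraries was not counted, so the snoRNAs below parent have no background here. SNORA44 had 3 reads in parent replicate 1 and 3 in siLINC01534-1 replicate 2. SNORD12 had 1 read in parent replicate 1 and 1 in siLINC01534-2 replicate 1, so both separations were ties in reads. SNORD99 of SNHG12 passed the limma threshold on 3 and 1 reads in parent and 0 in the siRNA libraries, a call that rests on 4 reads. The library kit selects polyadenylated RNA, which mature snoRNAs lack, so these values say little about snoRNA output.

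Among 6881 genes outside the group that averaged 10 FPKM or more, the 5 whose log2 level over the 6 libraries was most like the mean of the members were NUMBL, TRAF4, PLEC, GCLC and JMJD1C, with Pearson coefficients of 0.995 to 0.996. Coefficients above 0.95 were found for 151 of the 6881 genes. The 6 points come from 3 groups of 2 and share libraries with the members, so the coefficient is given as a description. GCLC was at 25.1 and 25.6 FPKM in parent, 42.5 and 43.1 in siLINC01534-1, and 52.6 and 55.3 in siLINC01534-2. The mean centred log2 level of the members was -0.36 and -0.31 in parent, 0.11 and 0.06 in siLINC01534-1, and 0.24 and 0.25 in siLINC01534-2.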

How the data were processed

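Per the labels, total RNA of HCT116 cells was made into TruSeq stranded mRNA libraries, and the authors sequenced them as 75-base single reads. The authors aligned reads to hg19 with TopHat 2.0.13, Bowtie2 2.2.3 and SAMtools 0.1.19 and deposited FPKM from Cufflinks 2.2.1, already normalized. The annotation is not given in the sources used here, nor is the use of strand. FPKM cannot be tested as counts, and FPKM of very short genes are inflated, since 1 read is worth many FPKM. Depth was estimated from whole-read steps of 129 low genes. RNA was isolated with different kits per the labels and the methods, and the methods name triplicate cultures where the labels give 2 libraries per group. No source says that the libraries come from separate cultures, so p-values measure only the spread between these libraries.

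Groups came from sample titles. log2(FPKM + 1) of 12203 genes averaging 1 FPKM or more was fitted with limma 3.58.1 in R 4.3.3 over all 6 libraries with 1 mean per group (eBayes with a trend, two-sided), and p-values were adjusted by Benjamini-Hochberg over all genes tested, with a threshold of 0.05. Log2 fold changes on this scale understate the change of low genes. Intervals are 95% intervals of the fit. The smallest two-sided p of an exact permutation test is 0.333 for 2 against 2 libraries and 0.133 for 4 against 2, so that test cannot reach 0.05 here. The pipeline was tested on simulated data.

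The members and all gene lists were chosen with earlier results of these data known. All 10 members are named, and of each list up to 4 genes, the 2 highest and 2 lowest called log2 fold changes of the averaged siRNA effect, plus neighbours and intronic snoRNAs. Marker lists were read as levels. Positions and sequences were read from GENCODE transcripts on GRCh37, the build of the files. RefSeq (GRCh38.p14) was used only for which snoRNA genes lie within a member. Alternatives were other normalizations, pseudocounts of 0.1 and 0.5, no filter or a filter at 5, no trend, a replicate block, the siRNA libraries as 1 group, each library left out, and, chosen after seeing the data, a fit without short RNA genes.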

Additional observations from a re-analysis of the deposited data

Results flagged for a closer look

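Compared directly with each other, the siRNAs differed past the limma threshold (Benjamini-Hochberg adjusted p under 0.05) in 7 host lncRNAs. On the log2(FPKM + 1) scale, siLINC01534-1 minus siLINC01534-2 was -0.417 for SNHG1, -0.414 for EPB41L4A-AS1, -0.322 for SNHG5, -0.309 for ZFAS1 and -0.168 for SNHG15, and it was 0.166 for SNHG6 and 0.208 for SNHG8. In each of these 7 members the libraries of one siRNA lay entirely above those of the other. Differences between the siRNAs were called for 41.8% of all genes tested. The differences of SNHG1 and ZFAS1 passed under all 15 alternatives, that of EPB41L4A-AS1 under 13, SNHG6 under 9, SNHG5 and SNHG8 under 7 and SNHG15 under 5.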

How the results depend on the processing

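No called member changed direction under any alternative. Against parent, GAS5, SNHG5 and ZFAS1 passed under all 15 alternatives with each siRNA and all 16 for their mean. The number of members called for the mean of both siRNAs was 3 instead of 9 with the 4 siRNA libraries as 1 group, where 361 instead of 4541 of all genes were called, and GAS5, SNHG5 and ZFAS1 were the 3. Between the siRNAs, 3 members instead of 7 were called with no filter on low values and 3 with no trend. With each library left out in turn, members called ranged from 6 to 7 for siLINC01534-1, 5 to 9 for siLINC01534-2, 6 to 8 for their mean and 2 to 5 between the siRNAs (2 without siLINC01534-2 replicate 2, 3 without siLINC01534-1 replicate 2, and 4 without siLINC01534-1 replicate 1 or siLINC01534-2 replicate 1). Genes called in all fell from 2788 to between 857 and 1931 for siLINC01534-2, from 4541 to 2219 without parent replicate 2 and 2447 without parent replicate 1 for the mean, and from 5096 to 3196 to 3391 without siLINC01534-1 replicate 1 or 2 or siLINC01534-2 replicate 1. The deviations of same-numbered libraries were weakly correlated (r = 0.114, 0.027 and -0.0456 across 12203 genes). These values cannot show whether same-numbered libraries were prepared together, and the main fit did not pair them. With the replicate block, 7, 9, 8 and 5 members were called in the 4 comparisons, and 1993 instead of 2788 genes in all for siLINC01534-2. The cause of these shifts was not tested beyond the smaller number of samples. Without short RNA genes, chosen after seeing the data, 8, 9, 10 and 8 members were called. Quantile normalization called 8, 9, 10 and 5. There, 5558, 2532, 4319 and 5163 of all genes were called, beside 5654, 2788, 4541 and 5096 in the main fit. Where no total over all genes is given for an alternative, a shift of the members cannot be told from one of all genes. The median log2 level of tested genes differed from parent by -0.0127 with siLINC01534-1 and 0.0045 with siLINC01534-2.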
